A study of Mus musculus with 4 samples.

Results

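Genes of the tripartite motif (TRIM) family of ubiquitin ligases were taken as all genes of the deposited mouse feature list whose symbol begins with Trim followed by a digit, which gave 68 of 31053 genes, all annotated as protein coding. They were examined in single-cell RNA-seq of pancreatic islets of C57BL/6 mice (C57BL6/J in the methods), exposed ex vivo for 6 h to no cytokine, IL-1β, IFN-γ, or IL-1β + IFN-γ, with 1 library per condition. Per the study's methods the islets came from male mice and were pooled before they were divided, so the 4 libraries share animals and carry no replicates. All intervals below therefore cover counting error only (95%, exact), and no difference was tested. The 4 libraries held 12571 barcodes, of which 7471 passed the limits of 200 to 4000 detected genes and at most 12% mitochondrial counts (1521 untreated, 2018 IL-1β, 2122 IFN-γ and 1810 IL-1β + IFN-γ). At most 2 barcodes were shared between any pair of libraries.

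TRIM genes encode a large family of proteins, most of which carry a RING domain that makes them E3 ubiquitin ligases, followed by B-box and coiled-coil domains and a variable C-terminal part. Several members mark viral components or signalling proteins with ubiquitin and are themselves transcribed in response to interferons, whereas others act in the nucleus as transcriptional cofactors, on the cytoskeleton, or in muscle and neurons. IL-1β and IFN-γ are used together to model the inflammatory setting of the pancreatic β-cell.

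Cells were assigned to 9 classes by their hormone or marker counts, and 414 cells were left unassigned. The β-like class held 1196, 1209, 1333 and 1301 cells (values for the 4 libraries stand throughout in the order untreated, IL-1β, IFN-γ, IL-1β + IFN-γ, called library order below), with 20113415, 10255113, 14522351 and 15956024 UMIs. All 7 β-cell markers, all 10 macrophage markers and all 9 endothelial markers were highest in their own class, against 4 of 7 α-cell markers and 4 of 5 δ-cell markers. The macrophage and endothelial lists and the hormone genes had also been used to assign the cells, so for them this outcome does not check the classes. The labels were checked with known targets of each cytokine. The level of *Igtp*, an IFN-γ-induced GTPase, in UMIs scaled to 1000000 of β-like cells was 3.43 and 6.05 in the untreated and IL-1β libraries and 565 and 389 in the IFN-γ and IL-1β + IFN-γ libraries. *Nfkbia*, which encodes the NF-κB inhibitor IκBα, was at 49.1 and 49.4 in the untreated and IFN-γ libraries and at 485 and 627 in the IL-1β and IL-1β + IFN-γ libraries.

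Levels are the UMIs of a gene scaled to 1000000 UMIs of a class (CPM). A UMI marks 1 captured 3′ end, so levels were not divided by transcript length. A median β-like cell held 17080.5, 8282, 10940 and 12197 UMIs. The hormone genes took 47.5%, 28.2%, 34.1% and 37.9% of β-like UMIs. A level is a share of all UMIs. The median gene (at least 20 UMIs in both libraries) was 1.31-fold, 1.24-fold and 1.02-fold higher in the 3 treated libraries than untreated (0.39, 0.31 and 0.03 on the log2 scale), and ratios to the median gene are given where this matters. The share taken by TRIM genes was small: 53062 UMIs in all kept cells, and 468, 620, 737 and 663 CPM in β-like cells. With hormone genes left out of the totals these sums became 892, 863, 1119 and 1067 CPM.

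Of the 68 TRIM genes, 36 reached 20 UMIs in β-like cells of at least 1 library, 26 of them in every library, 15 stayed between 1 and 19, and 17 had no UMI in β-like cells. Of those 17, 13 had none in any kept cell, among them the muscle genes *Trim54*, *Trim63* and *Trim72*. The last member inside this limit was *Trim59*, with at most 25 UMIs in a library, and the first outside was *Trim67*, with at most 11. With a difference of 2-fold or more as the limit, 7 of 34 members were higher with IL-1β against 17% of all genes measured in the same way, and 3 of 34 were lower against 6.4%. With IFN-γ alone, 8 of 34 were higher against 5.97% and 0 of 34 were lower against 0.642%. With IL-1β + IFN-γ, 11 of 36 were higher against 11.8% and 4 of 36 were lower against 12.6%. The 3 comparisons use the same untreated library. The median ratio over members was 1.24, 1.25 and 1.10, and over all genes measured it was 1.27, 1.24 and 1.003. Some members passed the 20 UMI limit only in 1 of the 2 libraries compared (7, 2 and 7 members), which favours a difference among those that entered in this way without forcing one. With IL-1β these were *Trim14*, *Trim15*, *Trim45*, *Trim62*, *Trim65*, *Trim66* and *Trim68*, with IFN-γ *Trim5* and *Trim62*, and with both cytokines *Trim5*, *Trim9*, *Trim14*, *Trim15*, *Trim30a*, *Trim65* and *Trim66*.

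**Figure D1:**
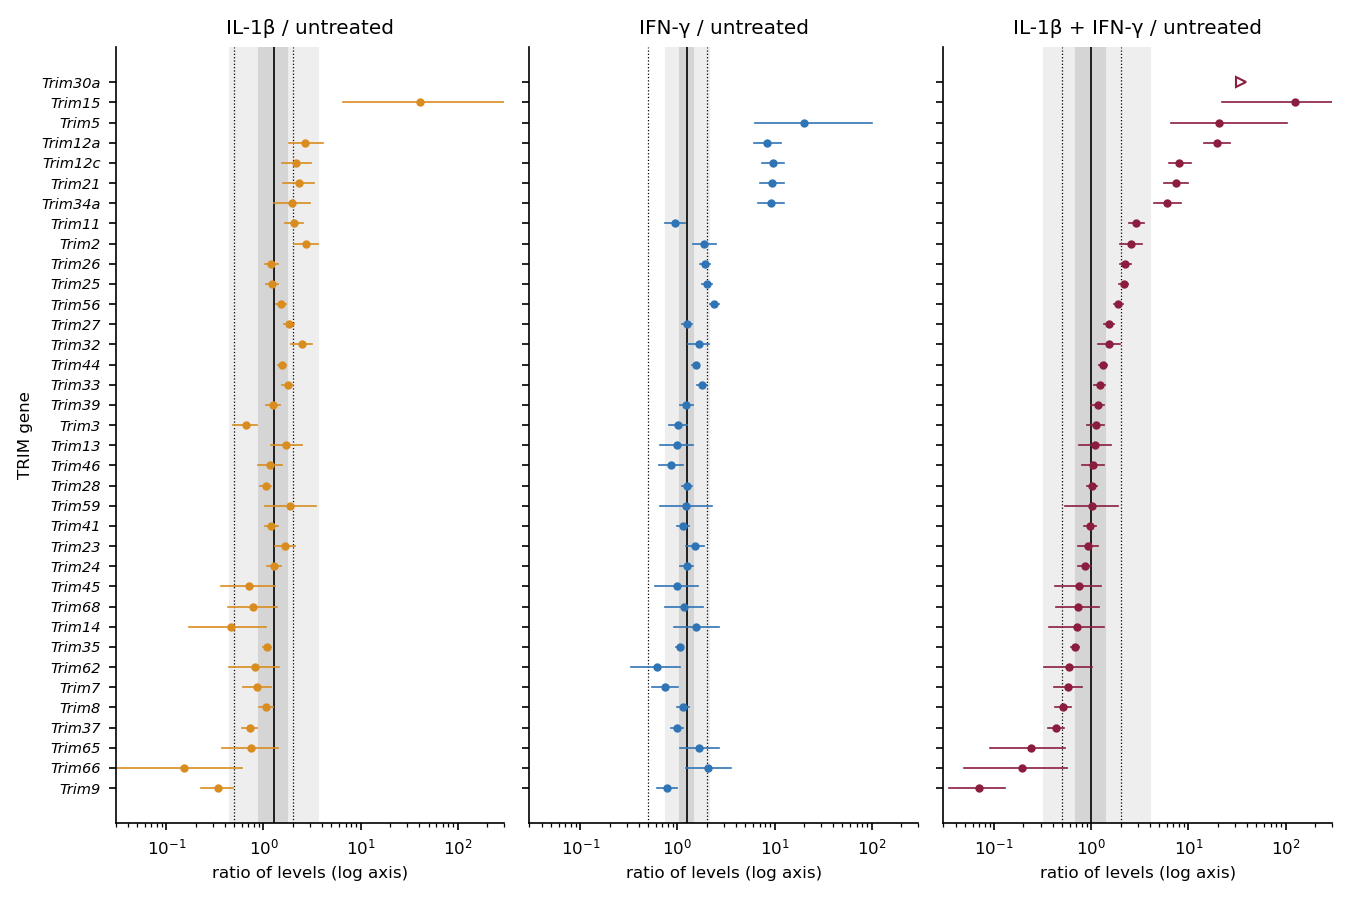
Ratio of levels in β-like cells to the untreated library (log axis) for the 36 TRIM genes with 20 UMIs in a library, ordered by the ratio with both cytokines. Points with lines are ratios with 95% counting intervals (clipped at the panel edges), the open triangle is a lower bound against 0 UMIs of *Trim30a*, grey bands hold the middle 50% and 90% of all genes measured, the black line is their median, and dotted lines mark 2-fold; *Trim12a*, *Trim12c*, *Trim34a*, *Trim5* and *Trim21* stand at 5.99-fold or more in the IFN-γ and IL-1β + IFN-γ panels, and *Trim9* is lowest with both.

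The members furthest above the bands with IFN-γ were *Trim12a*, *Trim12c*, *Trim34a*, *Trim5* and *Trim21*. The first 4 belong to a cluster of 10 TRIM genes on chromosome 7 (mm10, chr7:104218793-104507849), a region of antiviral paralogs that contains the counterpart of the retroviral restriction factor TRIM5 of primates. In β-like cells 5 of these 10 genes reached 20 UMIs in a library and 3 (*Trim30b*, *Trim30c* and *Trim34b*) had no UMI. *Trim12a* (chr7:104299894-104315466, minus strand) was at 2.24, 6.05, 18.7 and 43.6 CPM in library order, from 45, 62, 272 and 695 UMIs. Each step in this order exceeded the counting intervals. *Trim12c* (chr7:104338754-104353362, minus strand) was at 3.48, 7.61, 33.5 and 28.0 CPM, from 70, 78, 486 and 447 UMIs. The 2 libraries with IFN-γ were high and that with IL-1β alone was between them and the untreated library. The ratios to untreated with IL-1β + IFN-γ were 19.5 (14.4 to 26.9) for *Trim12a* and 8.05 (6.25 to 10.5) for *Trim12c*, and with IFN-γ alone 8.37 (6.09 to 11.7) and 9.62 (7.47 to 12.5).

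*Trim34a* (chr7:104244457-104262234, plus strand) encodes a relative of TRIM5 and was at 2.44, 4.78, 22.2 and 14.6 CPM. *Trim5* (chr7:104263386-104288094, minus strand) was scarce, with 3, 8, 43 and 49 UMIs, or 0.149, 0.780, 2.96 and 3.07 CPM. *Trim21* (chr7:102557921-102565486, minus strand) lies outside the cluster and encodes the cytosolic receptor for the Fc part of antibodies. It was at 2.88, 6.63, 27.1 and 21.3 CPM, which is 9.41-fold (7.13 to 12.6) higher with IFN-γ and 7.39-fold (5.58 to 9.94) higher with both than untreated. *Trim34a* was 9.10-fold (6.72 to 12.6) higher with IFN-γ and 5.99-fold (4.39 to 8.33) with both, and *Trim5* was 19.9-fold (6.35 to 100) and 20.6-fold (6.64 to 103) higher. With IL-1β alone, the ratios of *Trim12a*, *Trim12c* and *Trim21* were 2.70 (1.81 to 4.06), 2.19 (1.56 to 3.06) and 2.30 (1.60 to 3.32), but relative to the median gene these were 2.07, 1.67 and 1.76, and with hormone genes left out of the totals all were under 2-fold. In the IFN-γ library the ratios to untreated of *Trim12a*, *Trim12c*, *Trim21* and *Trim34a* relative to the median gene were 6.74, 7.74, 7.57 and 7.32.

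**Figure D2:**
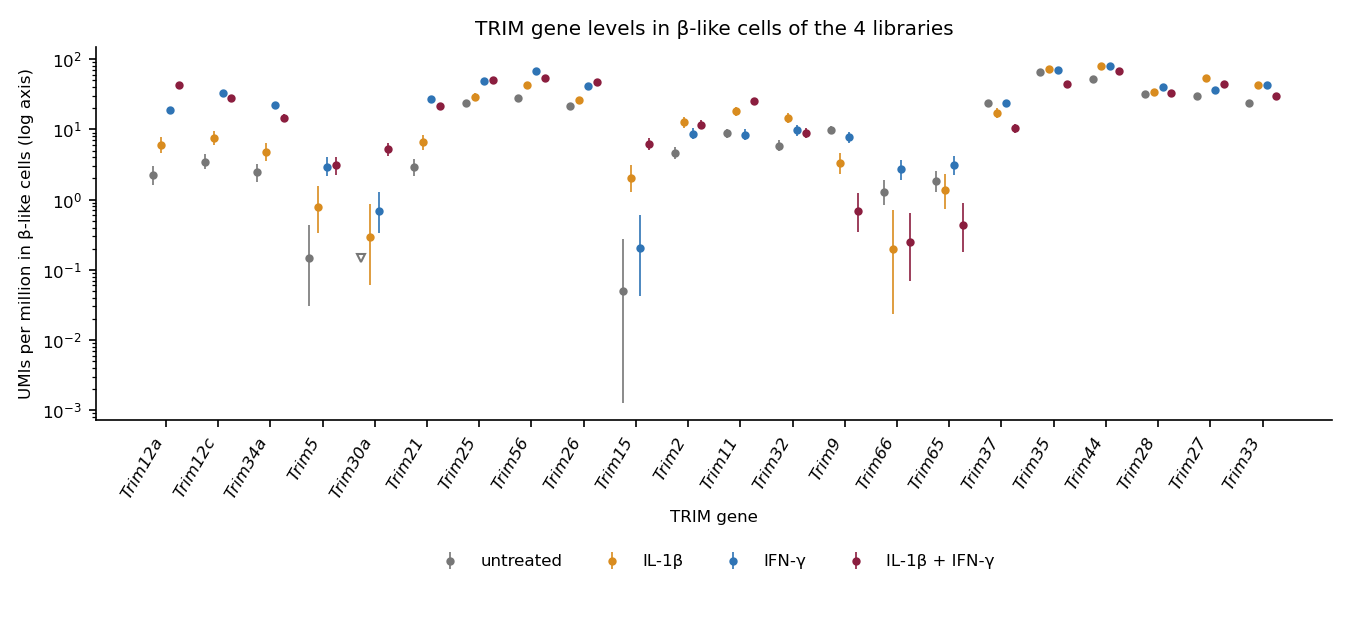
CPM (log axis) in β-like cells of each library for the 22 TRIM genes named by the selection rules, grouped from left to right by the order of the text. Points are levels, lines 95% Poisson intervals, and the open triangle is the limit of 0.149 CPM that 0 UMIs of *Trim30a* allow; *Trim12a*, *Trim12c*, *Trim34a*, *Trim5* and *Trim21* are high in the libraries with IFN-γ, *Trim15* in those with IL-1β, and *Trim9* is low there.

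*Trim12a* and *Trim12c* are near neighbours whose ratios between the 2 libraries with IFN-γ were unlike, a pair singled out after their values were seen. Between the IL-1β + IFN-γ and IFN-γ libraries, *Trim12a* was 2.33-fold higher (2.02 to 2.69). *Trim12c* was at 0.837-fold (0.735 to 0.954), an interval that holds the 0.820-fold of the median gene. The share of *Trim12a* in the summed UMIs of both genes does not depend on how the library is scaled. In β-like cells it was 39.1% (30.2 to 48.7), 44.3% (35.9 to 52.9) and 35.9% (32.5 to 39.4) in the untreated, IL-1β and IFN-γ libraries, and 60.9% (58.0 to 63.7) with both cytokines. In α-like cells the same share was 54.2% (32.8 to 74.4), 58.5% (44.1 to 71.9), 43.1% (36.1 to 50.2) and 63.0% (54.0 to 71.4) in library order, so that the combined library lay clear of the IFN-γ library only and overlapped the others. In δ-like cells it was 46.2% (26.6 to 66.6) with IL-1β alone, 42.9% (34.5 to 51.5) with IFN-γ alone and 71.2% (62.4 to 78.9) with both. In PP-like cells the intervals overlapped, at 48.8% (33.3 to 64.5) and 66.7% (51.6 to 79.6). Endothelial-like cells went the other way within their intervals, from 73.6% (61.9 to 83.3) with IFN-γ to 63.6% (47.8 to 77.6) with both. Of the distinct 50-base words in the last 500 bases of annotated transcripts, 6.13% of those of *Trim12a*, 17.8% of those of *Trim12c* and 36.9% of those of *Trim5* also occur in transcripts of another gene, and 22.2% of those of *Trim34a* occur in *Trim34b*. The words of *Trim12a* were found in *Trim5* and *Trim12c* among others, those of *Trim12c* in *Trim5*, and those of *Trim5* in *Trim12c*, while neither of these genes had end words found in *Trim12a*. The authors' counting could have split or dropped such reads, so counts of these paralogs are uncertain to that extent.

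**Figure D3:**
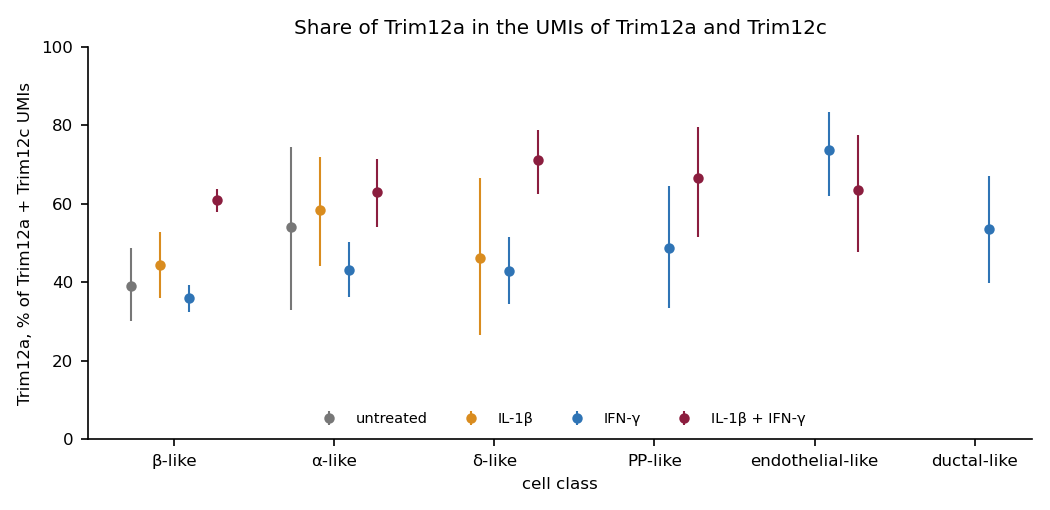
Percent of *Trim12a* in the summed UMIs of *Trim12a* and *Trim12c*, by cell class and library, where both genes together had at least 20 UMIs. Points are shares and lines 95% Clopper-Pearson intervals; in β-, α- and δ-like cells the IL-1β + IFN-γ library lies above the IFN-γ library with no overlap of intervals, in endothelial-like cells the intervals overlap.

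The fifth measured gene of the cluster, *Trim30a* (chr7:104409025-104465193, minus strand), encodes an inhibitor of NF-κB signalling that targets the TAK1-binding proteins TAB2 and TAB3. In β-like cells it had 0, 3, 10 and 83 UMIs, which is at most 0.149 CPM untreated (3 UMIs) and 0.293, 0.689 and 5.20 CPM in the treated libraries. Its level with both cytokines was at least 34.9-fold higher than untreated with 3 UMIs taken for the untreated 0 (the exact interval of the ratio, which also counts the error of the 83 UMIs, starts at 27.7), 17.8-fold (5.88 to 88.0) that with IL-1β and 7.55-fold (3.91 to 16.3) that with IFN-γ. The 83 UMIs came from 51 of 1301 cells (3.92%). After each cell was thinned to 4000 UMIs, 18 of 1268 cells (1.42%) held a UMI. Of its 3′ words 19.9% also occur in *Trim30d*. *Trim30a* was far more abundant in non-endocrine cells: 47.7, 76.5, 132 and 176 CPM in macrophage-like cells and 26.0, 48.3, 350 and 332 in endothelial-like cells, the libraries in the same order. The intervals of these 2 classes overlapped in the untreated and IL-1β libraries and lay apart in the other two, where endothelial-like cells were higher. In the IL-1β + IFN-γ library, the *Trim30a* level of β-like cells was 2.95% of that of macrophage-like cells. The 9 macrophage markers other than *C1qa* summed to 11.6 CPM in β-like cells, with none of them at 0, or 0.0452% of their level in macrophage-like cells. In library order this sum was 4.87, 14.9, 7.99 and 11.6 CPM. *C1qa*, the most abundant macrophage marker in β-like cells, was at 135 CPM there in that library, or 2.37% of its 5698 CPM in macrophage-like cells. In the other libraries it was at 68.8, 36.3 and 40.01 CPM in β-like cells. *C1qa* stood apart from its list. With the 4 libraries summed it was at 73.8 CPM in β-like and 3993 in macrophage-like cells. In the same sums *C1qb* was at 0.263 and 4704 CPM and *C1qc* at 0.181 and 3176. The part of RNA from macrophages in the *Trim30a* level was not tested. The 9 endothelial markers summed to 3.70 CPM in β-like cells, with 4 of them at 0, or 0.0499% of their level in endothelial-like cells, against 1.57% for *Trim30a*.

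A further 3 members linked to antiviral signalling were abundant before treatment. *Trim25*, the ligase that ubiquitinates the RNA sensor RIG-I, was at 23.9, 29.2, 48.3 and 51.3 CPM in library order. *Trim26*, which lies in the major histocompatibility complex region on chromosome 17 and has been tied to the turnover of IRF3, was at 21.4, 25.8, 41.2 and 48.1. *Trim56*, linked to STING and Toll-like receptor signalling, was at 28.1, 42.4, 67.3 and 53.4. All were highest in the 2 libraries with IFN-γ. With both cytokines the ratios were 2.15 (1.92 to 2.41) for *Trim25* and 2.25 (1.99 to 2.53) for *Trim26*, and 1.90 (1.71 to 2.12) for *Trim56*, whose ratio with IFN-γ alone was 2.39 (2.16 to 2.66). With hormone genes left out of the totals the 3 ratios with both became 1.81, 1.90 and 1.60, and those with IFN-γ alone became 1.61 for *Trim25* (from 2.02, 1.79 to 2.27) and 1.91 for *Trim56*, so that none passed 2-fold. Of the 16 genes listed as interferon-linked TRIM genes, 8 were measured with IFN-γ, of which 6 were 2-fold or more higher, 0 lower and 2 neither; with IL-1β 3 of 8 were higher and 1 lower (*Trim14*), and with both 7 of 9 were higher and 0 lower. Of all genes measured, 5.97%, 17% and 11.8% were higher in these comparisons. The 7 include *Trim30a*, which passed the 20 UMI limit only through the combined library, and *Trim14* passed it only through the untreated one in the comparison with IL-1β. The list's median ratio was 1.74, 5.38 and 5.99 in the 3 treated libraries, against 1.27, 1.24 and 1.003 over all genes. The list was chosen with earlier results of these data known, so its counts and medians are no independent test.

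To show what the members with higher levels have in common near their starts, the RefSeq promoter windows (GRCm38.p6, 250 bases before to 50 after the annotated start) were searched on both strands for 3 short motifs. These were an interferon-stimulated response element-like motif (ISRE-like, GAAANNGAA), the gamma-activated sequence (GAS, TTCNNNGAA) and a κB-like motif (GGNNNTTCC). Windows of 53 of the 68 members were found. The ISRE-like motif occurred in 9.76% of 27025 genes, the GAS motif in 9.55% and the κB-like motif in 20.7%. Of the 11 members that were 2-fold or more higher with both cytokines, 10 had a window and 9 of these held the ISRE-like motif in at least 1 window (*Trim2* in 1 of 5, *Trim30a* in both of its windows), against 1 (*Trim7*, singled out after its values were seen) of 17 measured members with a window that were 2-fold higher neither with IFN-γ nor with both, and 0 of 3 of those lower with both. Of the 8 members higher with IFN-γ, 6 held it and *Trim56* and *Trim66* did not. The counts for the κB-like motif were 3 of 10 and 3 of 17, and for the GAS motif 1 of 10 and 2 of 17. Over all members with a window, 12 of 53 held the ISRE-like motif. Among the 9, *Trim5* and *Trim30a* passed the UMI limit in this comparison through the combined library only. *Trim30d* and *Trim34b* also held the motif but stayed under that limit, so neither could enter the group of 17. The contrast thus covers measured members only, and which members were measured depended in part on their levels with treatment. The stretches around the matches are printed in the direction of transcription with the matching letters in capitals. A match on the other strand appears as the reverse complement of the letters given. Distances are counted from the RefSeq start, which can differ from the end of the gene range given above. Here and below, a distance after the start counts the start base as 1, whereas the plot of match positions sets it at 0. The match of *Trim12a* given at 12 thus begins 11 bases past its start base. For *Trim12a* the RefSeq start is at 104315495, and the capitals lie upstream of the range printed for this gene.
Trim12a, 12 bases after the start, chr7:104315466-104315494: gagttgtggtTTCTGTTTCatttccagag
Trim12c, 28 bases before the start, chr7:104353359-104353387: gagttgtggtTTCTGTTTCatttccagct
Trim5, 48 bases before the start, chr7:104288136-104288164: gagttgtggtTTCTGTTTCatttccagag
Trim34a, 12 bases after the start, chr7:104244458-104244486: ggtttggagtTTCAGTTTCttttctctgc
Trim30a, 35 bases before 1 of its 2 starts, chr7:104465210-104465238: gttctttagtTTCTTTTTCtcagttcctg
Trim30d, 40 bases before the start, chr7:104507871-104507899: gttctttagtTTCTTTTTCtcagttcctg
Trim21, 2 overlapping matches 14 bases after the start, chr7:102565448-102565476: ctgagagGAAACTGAAAGTGAAatttgga
Trim25, 9 bases before the start, chr11:88999384-88999412: gcccctcctgTTCAGTTTCgattccttcc
Trim26, 2 overlapping matches 159 bases before the start, chr17:36836980-36837008: ttccgatTTCACTTTCCTTTTCtcgggcc
Trim2, 30 bases after 1 of its 5 starts, chr3:84212791-84212819: cagctttggtTTCCTTTTCtctaagacag
Trim12a and Trim5 carry the same 29 bases, as do Trim30a and Trim30d, so the windows of the chromosome 7 paralogs are not independent of each other. A match is a run of letters and was not shown to be bound.

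**Figure D4:**
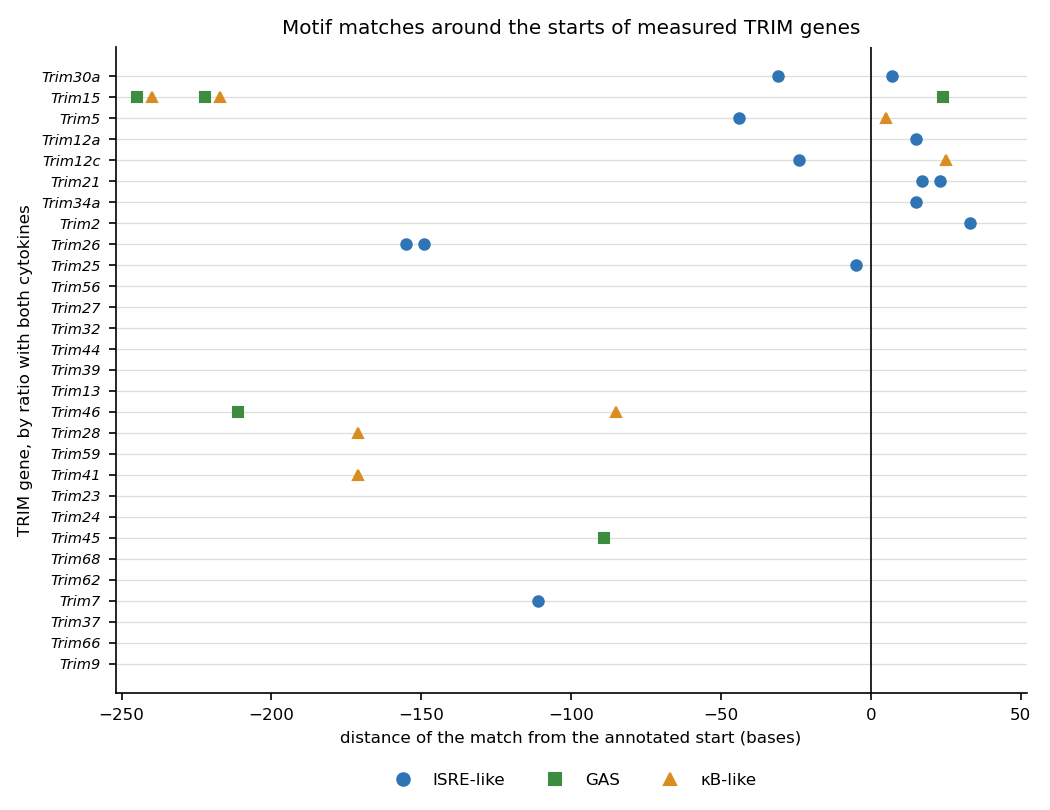
Positions of ISRE-like (circles), GAS (squares) and κB-like (triangles) matches, in bases from the annotated start (0, vertical line), in the RefSeq windows of the 29 TRIM genes with 20 UMIs in β-like cells of a library and a window, ordered by their ratio with both cytokines. Genes with several annotated starts show all windows on 1 line; ISRE-like matches fill the upper 10 lines apart from *Trim15* and otherwise occur only for *Trim7*.

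In β-like cells *Trim15* was high where IL-1β was present. *Trim15* (chr17:36860691-36867210, minus strand), a neighbour of *Trim26* that encodes a focal adhesion protein, had 1, 21, 3 and 100 UMIs in library order, which is 0.0497, 2.05, 0.207 and 6.27 CPM. The 2 libraries with IL-1β were high and did not overlap the other two. The ratio to untreated with both was 126 (22.1 to 5028) against a single untreated UMI, and the level with both was 3.06-fold (1.90 to 5.16) that with IL-1β alone and 30.3-fold (10.1 to 150) that with IFN-γ alone. The 100 UMIs lay in 81 of 1301 β-like cells (6.23%), and no UMI of *Trim15* was found in macrophage- or endothelial-like cells, where 0 UMIs allow 2.67 and 4.33 CPM over the 4 libraries. Ductal-like cells had 0, 0, 5 and 1 UMIs, or 21.2 CPM (6.88 to 49.4) with IFN-γ alone. With IL-1β alone the 0 UMIs allow 25.4 CPM there, so the counts are too few to show a contrast with β-like cells. In δ-like cells 0, 1, 0 and 5 UMIs were counted. The window of *Trim15* held a κB-like match that overlaps a GAS match, 221 and 226 bases before 1 of its 2 annotated starts. The window of the other start also held a GAS match 21 bases after that start. Among the members higher with both, *Trim12c* and *Trim5* held κB-like matches too, 22 and 2 bases after the start. With the κB-like letters in capitals, the *Trim15* stretch reads as follows.
Trim15, chr17:36867413-36867441: agagattccaGGAAACCCCatttccaagt

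*Trim2* and *Trim32*, ligases with C-terminal NHL repeats, and *Trim11*, a ligase implicated in the clearance of misfolded proteins, were also higher with IL-1β. *Trim2*, known in neurons for ubiquitination of neurofilament light chain, was at 4.62, 12.7, 8.75 and 11.7 CPM in library order. *Trim11* was at 8.80, 18.1, 8.40 and 25.5, so that the 2 libraries with IL-1β lay above the 2 without it. *Trim32*, mutated in a limb-girdle muscular dystrophy, was at 5.87, 14.5, 9.71 and 8.90, highest with IL-1β alone. The ratios to untreated with IL-1β were 2.74 (2.08 to 3.62) for *Trim2*, 2.06 (1.67 to 2.55) for *Trim11* and 2.48 (1.93 to 3.18) for *Trim32*, and relative to the median gene 2.10, 1.58 and 1.89. With both cytokines *Trim11* was 2.90-fold (2.42 to 3.48) and *Trim2* 2.53-fold (1.97 to 3.29) higher, and *Trim32* was at 1.52-fold (1.18 to 1.95). Of the 4 NHL-repeat genes 3 were measured, of which 2, 0 and 1 were 2-fold or more higher in the 3 treated libraries (all genes: 17%, 5.97% and 11.8%) and 0 were lower. The IL-1β ratios of *Trim11* and *Trim32* were under 2-fold with hormone genes left out of the totals, whereas that of *Trim2* was not.

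With both cytokines, 4 of 36 members (11.1%) were 2-fold or more lower, a share no higher than the 12.6% of all genes measured. *Trim9*, a brain-enriched ligase that binds SNAP25 and acts in vesicle exocytosis and axon branching, was at 9.84, 3.32, 7.71 and 0.689 CPM, from 198, 34, 112 and 11 UMIs. The 2 libraries with IL-1β were the lowest, at 0.337-fold (0.227 to 0.486) for IL-1β alone, and the level with both was 0.0700-fold (0.0344 to 0.128) that of untreated and 0.208-fold (0.0950 to 0.420) that with IL-1β alone. It was seen in 160 of 1196 untreated β-like cells (13.4%) and in 9 of 1301 cells with both cytokines (0.692%). After thinning to 4000 UMIs, these shares were 3.21% of 1153 cells and 0.473% of 1268 cells. *Trim9* was also low with IL-1β in α-like cells, with 13, 7, 26 and 3 UMIs (14.4, 3.02, 10.8 and 1.97 CPM). None of 147 macrophage-like and 117 endothelial-like cells held a *Trim9* UMI.

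*Trim66*, a TIF1-type chromatin reader, had 26, 2, 39 and 4 UMIs in β-like cells, and *Trim65*, reported to ubiquitinate the RNA sensor MDA5, had 37, 14, 45 and 7. The levels were higher with IFN-γ than untreated (2.08-fold, 1.23 to 3.55, and 1.68-fold, 1.07 to 2.68) and lower with both cytokines (0.194-fold, 0.0492 to 0.559, and 0.238-fold, 0.0897 to 0.542). Relative to the median gene the IFN-γ ratios of *Trim66* and *Trim65* were 1.67 and 1.36, and with hormone genes left out of the totals 1.65 and 1.34. After thinning to 4000 UMIs per cell, *Trim66* was left in 4, 1, 13 and 1 cells and no longer reached 20 UMIs in any library, while its ratios were 0.256, 2.95 and 0.227 in the 3 treated libraries. *Trim65* was left in 4, 9, 24 and 3 cells, with a ratio of 0.682 with both and of 5.45 with IFN-γ. Of the 4 TIF1-type genes, all measured, 1 was 2-fold or more higher with IFN-γ (*Trim66*) and 1 lower with IL-1β and with both (*Trim66*), against 5.97% of all genes higher with IFN-γ, 6.4% lower with IL-1β and 12.6% lower with both, and the other three passed neither limit. Of 4 genes listed as microtubule-associated or neuronal, 2 were measured (*Trim9* and *Trim46*), and *Trim9* alone passed 2-fold, being lower with IL-1β and with both (all genes: 6.4% and 12.6%). *Trim37*, a centrosomal ligase mutated in mulibrey nanism, was at 23.8, 17.2, 23.4 and 10.3 CPM, or 0.435-fold (0.362 to 0.520) with both. *Trim8*, which lay just short of the limit at 0.509-fold (0.422 to 0.611), was at 20.3, 21.7, 23.1 and 10.3 CPM. *Trim8* encodes a ligase that binds the cytokine signalling suppressor SOCS1. Among *Trim66*, *Trim65*, *Trim37* and *Trim8* the level with both was lower than with either cytokine alone for *Trim65*, *Trim37* and *Trim8*, whereas that of *Trim66* was as low with IL-1β alone. For *Trim65* the comparison with IL-1β alone rests on 7 and 14 UMIs, under the limit of 20 UMIs.

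Both cytokines were also compared with each one alone. Against IL-1β, 7 of 33 members were 2-fold or more higher (all genes: 2.74%), namely *Trim12a*, *Trim12c*, *Trim34a*, *Trim5*, *Trim21*, *Trim30a* and *Trim15*, and 2 of 33 were lower (7.88%), namely *Trim8* and *Trim9*. Against IFN-γ, 4 of 36 were higher (6.14%), namely *Trim12a*, *Trim15*, *Trim30a* and *Trim11*, and 6 of 36 were lower (16.1%), namely *Trim9*, *Trim66*, *Trim65*, *Trim37*, *Trim8* and *Trim14*. Here too some members reached 20 UMIs in only 1 of the 2 libraries. Against IL-1β these included *Trim30a*, *Trim5* and *Trim9*, and against IFN-γ *Trim15* and *Trim30a* of the 4 higher and *Trim9*, *Trim66*, *Trim65* and *Trim14* of the 6 lower. *Trim14*, an adaptor without a RING domain that acts at mitochondria in antiviral signalling, had 30, 7, 34 and 17 UMIs. The ratios of both to IL-1β were 7.20 (5.55 to 9.50) for *Trim12a*, 3.68 (2.89 to 4.75) for *Trim12c* and 3.21 (2.47 to 4.23) for *Trim21*.

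The 6 most abundant members lay within 2-fold of untreated, apart from *Trim56* with IFN-γ. The highest levels in untreated β-like cells were those of *Trim35*, *Trim44*, *Trim28*, *Trim27*, *Trim56* and *Trim33*. The last of these places was not settled by the counts, with 486 untreated UMIs for *Trim33*, 481 for *Trim25* and 478 for *Trim37*. With both cytokines *Trim25* was at 2.15-fold and *Trim37* at 0.435-fold, so the statement on 2-fold holds for this list of 6 only. *Trim35*, a regulator of pyruvate kinase M2, was at 66.3, 72.4, 70.4 and 44.9 CPM, and *Trim44*, an atypical member without a RING domain, at 51.9, 79.96, 79.7 and 68.3. *Trim28*, the KAP1 corepressor recruited by KRAB zinc finger proteins, was at 32.1, 33.9, 40.1 and 32.9, and *Trim33*, the TIF1γ cofactor of SMAD signalling, at 24.2, 42.8, 43.1 and 29.5. *Trim27*, first found as a fusion partner of the RET kinase, was at 29.5, 54.4, 36.8 and 44.8. *Trim44* stood above *Trim35* in the 3 treated libraries, in that with IL-1β within overlapping intervals, and the intervals of *Trim28* and *Trim27* in the untreated library overlapped (29.6 to 34.6 and 27.2 to 32.0). With both cytokines the ratios of these 6 genes lay between 0.678 (*Trim35*) and 1.90 (*Trim56*). Of the 3 endoplasmic reticulum and ARF-type members (*Trim13*, *Trim23* and *Trim59*), 0 of 3 passed 2-fold in any of the 3 comparisons with untreated, a count from which nothing is read, since 17%, 5.97% and 11.8% of all genes were higher and 6.4%, 0.642% and 12.6% lower.

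Genes outside the symbol rule were read for comparison. Among 7 TRIM proteins with other names, 5 were measured, and *Pml*, which builds nuclear bodies, was at 8.30, 7.31, 22.4 and 25.5 CPM. The microtubule-binding *Mid1* and *Mid2* were 2.64-fold (1.96 to 3.56) and 3.61-fold (2.94 to 4.45) higher with IL-1β, where the median gene was 1.31-fold higher. *Rnf135*, another ligase of RIG-I, was 2.42-fold (1.90 to 3.11) higher with both. All ratios in this paragraph keep hormone genes in the totals, so those with IL-1β near 2-fold may not hold without them. Of 31 ubiquitin-system and RNA-sensing partners of TRIM proteins, 16, 10 and 13 were 2-fold or more higher in the IL-1β, IFN-γ and IL-1β + IFN-γ libraries than untreated, and 0 were lower, against 17%, 5.97% and 11.8% of all genes. The list's median ratios were 2.01, 1.62 and 1.73, against 1.27, 1.24 and 1.003 over all genes. This list too was chosen with earlier results of these data known. The higher genes included the ubiquitin-like modifier *Isg15* (0.795, 2.73, 26.0 and 123 CPM), its conjugating enzyme *Ube2l6* (8.30, 33.2, 76.2 and 82.2) and the RIG-I gene *Ddx58* (10.7, 29.4, 34.8 and 63.8). *Ikbke*, an IκB kinase-related kinase, was at 6.02, 47.9, 6.82 and 57.4.

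In α-like cells (89, 339, 297 and 170 cells) 0 of 20 members were 2-fold or more higher with IL-1β (all genes: 9.93%). With IFN-γ 6 of 26 were (6.63%), among them *Trim21*, *Trim25* and *Trim56*, and in the combined library 5 of 20 were (11%). In δ-like cells (58, 156, 172 and 98 cells) the counts in the same order were 0 of 12 (12.3%), 5 of 18 (6.15%) and 5 of 13 (14.9%). In α-like cells 0 members were 2-fold or more lower (all genes: 6.39%, 0.937% and 10.3%). In δ-like cells 1 of 12 was lower with IL-1β and 0 in the other comparisons (all genes: 6.63%, 1.66% and 14%). It was *Trim24* (45.1 CPM untreated and 16.3 with IL-1β), which reached 20 UMIs in the untreated library only. The untreated α- and δ-like cells were few, and 15 of the 26 and 12 of the 18 members with IFN-γ reached 20 UMIs in only 1 of the 2 libraries. They included 5 of the 6 α calls (all but *Trim56*) and all 5 δ calls, which entered through the IFN-γ library. With both cytokines the limit was passed in 1 library only by 9 of the 20 and 8 of the 13, among them 4 of the 5 α calls (all but *Trim2*) and all 5 δ calls. *Trim12c* was at 12.2, 9.50, 48.0 and 30.9 CPM in α-like cells and 2.05, 17.6, 63.8 and 55.3 in δ-like cells. *Trim34a* was at 3.33, 3.89, 26.7 and 19.7 in α-like cells and 8.19, 11.3, 33.5 and 26.1 in δ-like cells. Both genes were thus highest in the 2 libraries with IFN-γ in β-, α- and δ-like cells. In PP-like cells the UMIs were few, with 1, 1, 22 and 16 for *Trim12c* and 1, 2, 12 and 6 for *Trim34a*. The ratios of *Trim12a* to untreated with both cytokines were 3.65 (2.02 to 7.16) in α-like cells, 13.3 (5.51 to 42.1) in δ-like cells and 19.5 (14.4 to 26.9) in β-like cells. The untreated level of *Trim12a* was 14.4 CPM in α-like cells (13 UMIs), 10.2 in δ-like cells (5 UMIs) and 2.24 in β-like cells, while the levels with both cytokines were 52.6, 137 and 43.6 in α-, δ- and β-like cells. Whether these ratios differ between classes was not tested.

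At 4000 UMIs per cell, at least 1 UMI of *Trim5*, *Trim12a*, *Trim12c*, *Trim21* or *Trim34a* was found in 4.34% (3.24 to 5.68), 10.5% (8.74 to 12.4), 31.4% (28.8 to 34.0) and 33.3% (30.7 to 36.0) of β-like cells in library order. Without thinning these shares were 16.3%, 18.4%, 59.3% and 64.3%, and 43, 82, 64 and 33 cells were too shallow to thin. In δ-like cells the thinned shares were 11.3% (4.27 to 23.0), 23.9% (16.5 to 32.7), 45.2% (37.2 to 53.3) and 55.3% (44.1 to 66.1), and in α-like cells 13.6% (6.98 to 23.0), 13.1% (9.54 to 17.4), 41.2% (35.4 to 47.2) and 36.4% (29.03 to 44.2). The 2 libraries with IFN-γ were the highest in the 3 classes. The IL-1β share lay above the untreated one in β-like cells, and their intervals overlapped in δ- and α-like cells. These genes were chosen for their ratios, and no cell class without them was available to set a background. In macrophage-like cells, which do not make islet hormones, hormone genes still took 0.153% to 0.927% of UMIs.

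Levels in different cell classes also depend on the hormone share of each class. Per library, hormone genes took 28.2% to 47.5% of β-like UMIs, 17.4% to 24.2% of α- and δ-like UMIs and 0.326% to 0.726% of endothelial-like UMIs. This lowers the β-like levels relative to the others. The ratios between classes keep hormone genes in the totals, so those near the 4-fold limit may not hold without them. Across cell classes, with the 4 libraries summed, *Trim2* was at 41.4 (36.8 to 46.4) CPM in α-like cells and 44.5 (37.5 to 52.5) in δ-like cells against 8.83 in β-like cells. By library its δ-like level was 53.3, 28.9, 45.4 and 55.3 CPM. Set against the β-like levels given above, the gap was widest untreated and narrowest with IL-1β alone. *Trim35* was at 166 in α-like, 121 in δ-like and 62.7 in β-like cells. *Trim14* was 4.98-fold (3.01 to 7.96) higher in δ-like than in β-like cells, from 23 UMIs, of which 15 came from the IFN-γ library and 0 from the untreated one. In the 3 treated libraries it was at 5.02, 11.95 and 6.14 CPM in δ-like cells against 0.683, 2.34 and 1.07 in β-like cells, and the intervals lay apart in the IFN-γ library and overlapped in the other two. *Trim47*, a ligase of the vascular endothelium, was at 85.1 (64.8 to 110) CPM in endothelial-like cells, 74.1 (47.5 to 110) in mesenchymal-like cells and 37.2 (22.7 to 57.5) in ductal-like cells, against 4 UMIs (0.0657 CPM) in β-like cells. These 3 intervals overlap except for endothelial- and ductal-like cells. *Trim47* overlaps *Trim65* on the same strand and shares 10.1% of its 3′ words with it. *Trim16*, a member without a RING domain that takes part in the response to lysosomal damage, had 26 UMIs in endothelial-like cells (37.5 CPM) and 2 in all β-like cells. Its endothelial UMIs were 12, 9, 2 and 3 over the libraries, or 78.1 (40.3 to 136), 72.5 (33.1 to 138), 8.74 (1.06 to 31.6) and 16.1 (3.31 to 46.9) CPM. It was thus lower in the libraries with IFN-γ, although the interval with both overlaps those of the untreated and IL-1β libraries, and it shares a part of its 3′ end with the overlapping gene *Fbxw10* (10.5% of words). *Trim30d*, next to *Trim30a*, was at 30.2 (20.9 to 42.3) in macrophage-like and 36.1 (23.3 to 53.2) in endothelial-like cells, which overlap, with 7 UMIs in β-like cells, and shares 16.9% of its 3′ words, nearly all with *Trim30a*.

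In endothelial-like cells (26, 30, 40 and 21 cells) *Trim30a* was 13.4-fold (5.04 to 50.5) higher with IFN-γ and 12.8-fold (4.74 to 48.3) with both than untreated. *Trim25* was at 13.0, 24.2, 170 and 80.3 CPM, and *Trim56* at 32.5, 88.6, 166 and 166. *Trim12a* was at 45.6, 40.3, 232 and 150 CPM there, and at 127 with IFN-γ in ductal-like cells, where the untreated library had 0 UMIs. *Trim24*, the TIF1α cofactor, singled out after its values were seen, had 27, 6, 19 and 6 UMIs in endothelial-like cells (176, 48.3, 83.0 and 32.1 CPM), lower in each treated library. In macrophage-like cells (36, 37, 44 and 30 cells) *Trim30a* was 2.76-fold (1.51 to 5.34) higher with IFN-γ and 3.69-fold (2.03 to 7.11) with both, and *Trim25* was at 41.3, 105, 98.8 and 142. *Trim8* was at 79.5, 71.7, 18.0 and 30.0 CPM in macrophage-like cells, from 25, 15, 6 and 8 UMIs. Its ratios to untreated in the 3 treated libraries were 0.902 (0.442 to 1.78), 0.226 (0.0758 to 0.564) and 0.377 (0.147 to 0.863), so that the 2 libraries with IFN-γ were low and that with IL-1β alone could not be told from untreated. In acinar-like cells 0 members reached 20 UMIs.

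**Figure D5:**
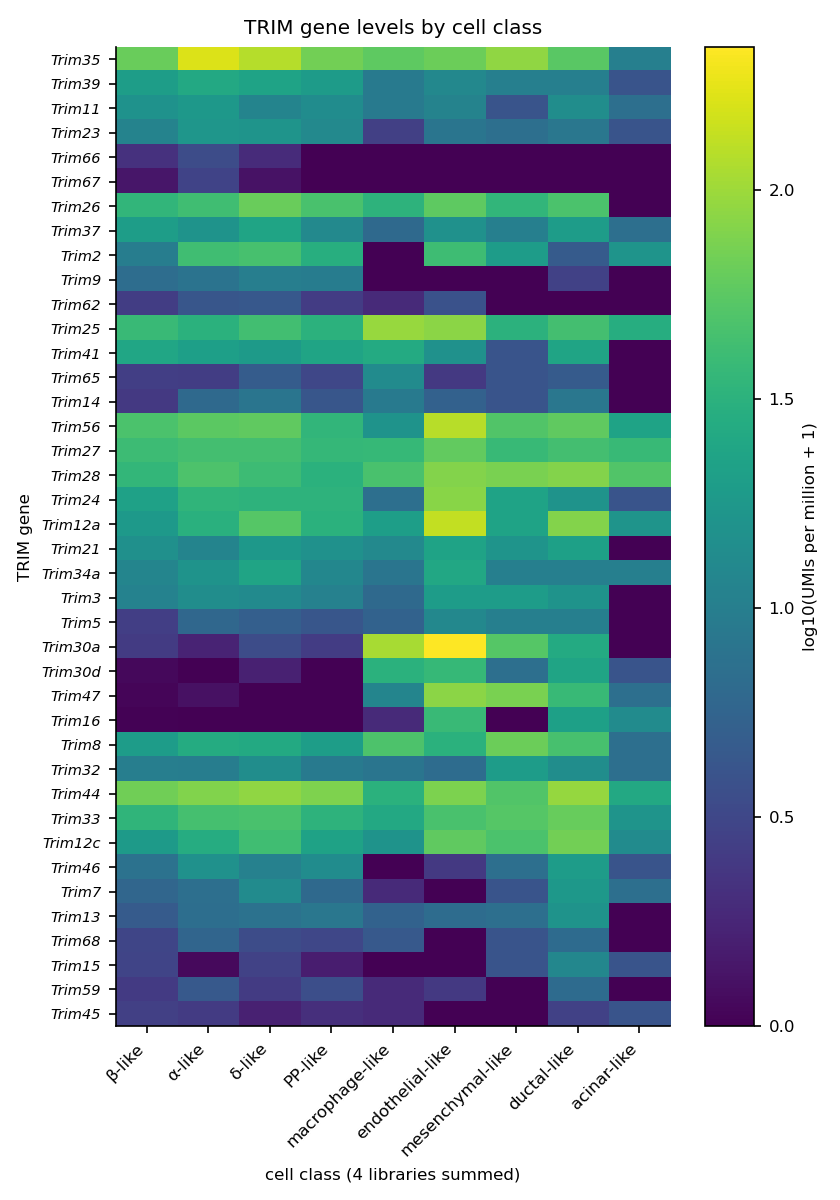
Levels of the 40 TRIM genes with at least 20 UMIs in some cell class, as log10 of CPM + 1, with the 4 libraries summed for each of the 9 classes. Rows are ordered by the class with the highest level, then by the level in β-like cells; *Trim30a*, *Trim30d*, *Trim47* and *Trim16* are bright in endothelial-like cells and dim in β-like ones (*Trim30a* and *Trim30d* also bright in macrophage-like cells), and *Trim35* is brightest in α-like cells.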

How the data were processed

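The deposited files are whole-number UMI counts per gene and cell barcode that the authors made with Cell Ranger against mm10 (per the labels; matrix header version 3.0.0); the kit version is given differently by the labels and the methods. The features and barcodes files gave names only. Barcodes with 200 to 4000 genes and at most 12% mitochondrial counts were kept. Endocrine classes needed 2% hormone UMIs with 80% from 1 hormone; other classes needed 3 detected markers, 0.1% of UMIs and 3 times the next list, and cells of these with 10% hormone UMIs were unassigned. No doublet caller was run. 58 endocrine cells lay within 5 percentage points of the purity limit and 101 between 2% and 4% hormone UMIs. Counts were summed per class and library. Poisson, exact conditional (ratios) and Clopper-Pearson intervals at 95% cover counting error only, and the summing and ratio steps were tested on simulated data (Python 3.11.15, numpy 2.4.6, scipy 1.17.1). A count of 0 was set to a limit of 3 UMIs per library. With 1 library per condition no test was possible. Named in the text are members 2-fold or more from untreated in β-like cells with an interval clear of 1 and 20 UMIs in a compared library, the 6 highest untreated members, and up to 5 per other class at 4 times the β-like level; *Trim7*, *Trim8* and *Trim24* were named after their values were seen. Positions are from GENCODE M21, promoter windows from RefSeq. Members and gene lists were chosen with earlier results of these data known. Some marker genes are not reported here by name.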

Additional observations from a re-analysis of the deposited data

How the results depend on the processing

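Under 7 alternative settings in β-like cells, 0 of the ratios of the named members that passed 2-fold changed direction. Leaving hormone genes out of the totals moved 35 of 74 ratios of named members outside their counting interval and lowered the members 2-fold higher with IL-1β from 7 to 2 and with IFN-γ from 8 to 5, and raised those lower with IFN-γ to 1, lower with both from 4 to 7, and set those lower with both against IL-1β at 1. Scaling by the median gene gave 3 higher with IL-1β, 5 higher and 1 lower with IFN-γ, 1 lower against IL-1β and 3 lower against IFN-γ. Thinning to 4000 UMIs per cell gave 1 lower with IFN-γ, 1 lower against IL-1β and 3 lower against IFN-γ, and the mean over cells gave 1 lower with IFN-γ. Thinning also ended the calls of *Trim65* (ratio 0.682) and *Trim66* (0.227) as lower with both, of *Trim14* and *Trim66* (0.256) as lower with IL-1β and of *Trim66* (2.95) as higher with IFN-γ, and *Trim66* was lost for having under 20 UMIs, not for its ratio. Among members higher with IL-1β, thinning ended the call of *Trim11* as well and added *Trim23*. At 1.5-fold, 15 were higher with IL-1β, 16 higher and 1 lower with IFN-γ, 7 lower with both, and 9 and 10 lower with both against IL-1β and IFN-γ. With a minimum of 50 UMIs, 1 was lower with IL-1β, 2 lower with both, and 1 and 3 lower with both against IL-1β and IFN-γ. Without the upper gene limit 1 was lower with both against IL-1β in β-like cells; in α-like cells 2 were lower with both and 1 against IL-1β; in δ-like cells 1 was higher with IL-1β, 2 were lower with both and 2 against IFN-γ. With hormone genes left out, 1 was lower with both in α-like cells. Neither the 20% mitochondrial limit, the 95% purity limit nor an interval clear of 1 moved a count by over 1.5 times. *Trim12a*, *Trim12c*, *Trim21* and *Trim34a* were 2-fold or more higher with IFN-γ under each setting that kept the 2-fold limit and 20 UMIs; with IL-1β, 1 member (*Trim2*) was. After thinning, *Trim5* and *Trim15* had no untreated UMI and gave no ratio, but *Trim15* still counted as higher with both, while *Trim5* with IFN-γ or both and *Trim15* with IL-1β fell under 20 UMIs. The causes were not tested. Depth limits members under about 20 UMIs, whose intervals span several-fold, and the upper gene limit left out 843 untreated barcodes against 146, 345 and 222 in the IL-1β, IFN-γ and IL-1β + IFN-γ libraries. No paired analysis was possible because each condition has 1 library.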
